A study of Drosophila mojavensis with 14 samples.

Results

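Among transcripts of the lower reproductive tract of Drosophila mojavensis females, 80 were chosen because their mean level was lowest 15 min after copulation, with males of another species and with males of their own. The rule took log2 probe intensity, quantile normalized over the arrays, averaged it per transcript and took group means. In each mating it set the mean of each of 4 states (virgin, 15 min, 2 h, 6 h) against the mean of the other 3, and kept transcripts whose farthest state was 15 min, and lower, in both matings. That left 199 of 14471 GI-numbered transcripts, and the 80 whose smaller deviation was largest are the members. The members were thus chosen by the same intensities that are described below, on every array, so the depth of the dip is given as a description, and nothing is read from counts of calls in the contrasts that make it up.

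The groups were females mated with Drosophila arizonae males (heterospecific) and with D. mojavensis males (conspecific), each at 15 min, 2 h and 6 h after copulation, and virgin females. All females came from 1 isofemale line from the Anza Borrego desert and the D. arizonae males from 1 line from Guaymas. The females and the D. arizonae males are thus each represented by a single line. Flies were 10 to 12 days old, each mated female met 2 males, and 20 to 25 tracts made up a sample, so the spread between single females was not measured. Each of the 7 groups had 2 samples, described by the labels as biological replicates, and each sample had 1 NimbleGen 1-colour array of 71998 probes.

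The lower tract receives the ejaculate, stores sperm and passes eggs. In Drosophila, seminal fluid proteins made in the male's accessory glands act on this tissue within minutes of mating, and female transcript levels change over the following hours. In pooled tissue, fewer cells of a type and less RNA per cell cannot be told apart.

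The arrays name these transcripts by GI number. The gene table used here matched 0 of the 80 members and 0 of all 14471 GI numbers, so no function is given for any of them and no sequence is shown. Defining markers of the tract's cell types were not analysed here for the same reason. Of the lists that the array names allow, the 4 Acp transcripts, named after accessory gland proteins, averaged 8.08 to 8.90 on the log2 scale on the heterospecific 15 min arrays, 6.95 to 7.18 on the conspecific 15 min arrays and 6.88 and 6.999 on the virgin arrays. Of these 4, 1 was above background on either array in the virgin and conspecific groups, and 3 were in each heterospecific group. At 2 h and 6 h the 4 averaged 7.83 to 7.99 and 7.58 to 7.73 on the heterospecific arrays. On the conspecific arrays they averaged 6.96 to 6.98 and 6.94 to 7.07 at these times. The 25 Tes transcripts averaged 8.69 to 8.82 in every group. The part of either list in the results below was not tested.

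Levels below are log2 intensities after background correction (normexp, offset 50), quantile normalization and median polish over a transcript's probes, unless the scale of the rule is named. The upper quartile of raw probe intensity was 943 to 1413 on 4 arrays, called dim here: the second array of the virgin and conspecific 15 min groups and the first of the conspecific 2 h and 6 h groups. It was 2014.75 to 2912 on the other 10. Array images were read on 2 days, per the file headers: day 1 held the 4 later heterospecific arrays, the first heterospecific array of 15 min and the second conspecific array of 6 h, and day 2 held the other 8.

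On the scale of the rule, the 15 min level lay below the mean of the other states by a median of 0.42 after heterospecific mating (values from -0.82 to -0.22) and of 0.39 after conspecific mating (from -1.04 to -0.22). The dip was deeper after heterospecific mating for 38 members and after conspecific mating for 42. It reached 0.5 in both matings for 11 members. Just inside the limit, GI24145 (rank 79) and GI16435 (rank 80) had smaller deviations of 0.221 each, and just outside it GI24559 and GI20179 (ranks 81 and 82) had 0.220 and 0.217, so nothing separates the last members from the next transcripts.

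**Figure D1:**
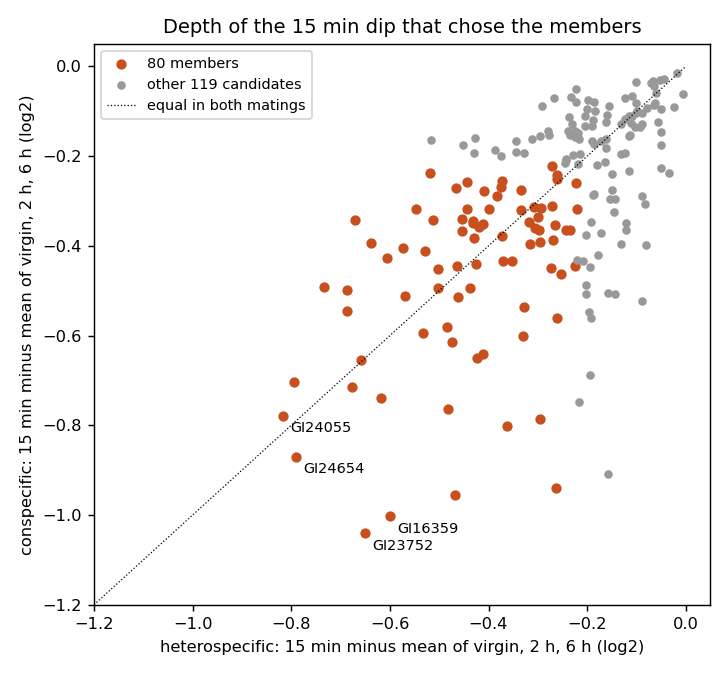
Each point is 1 of the 199 candidate transcripts, placed by the log2 deviation of 15 min from the mean of virgin, 2 h and 6 h after heterospecific (x axis) and conspecific (y axis) mating, on the scale of the rule. The 80 members (orange) run into the other 119 candidates (grey) with no gap, and GI23752 and GI16359 lie lowest on the conspecific axis.

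GI24654 ranked first on the scale of the rule, but the rule did not choose it on the scale of the levels given here, and chose it again in 8 of 14 omissions of a single array. Its log2 level was 10.14 and 9.73 on the virgin arrays. After heterospecific mating it was 10.00 and 9.96 at 15 min, 11.21 and 11.09 at 2 h, then 10.90 and 11.40 at 6 h. After conspecific mating it was 9.74 and 9.02, then 9.80 and 10.65, then 10.21 and 10.98 at the same times. The heterospecific 15 min arrays lay between the virgin arrays, so for this transcript the low value in that mating was low only against 2 h and 6 h. GI24055, ranked second, was at 10.32 and 10.26 in virgins. After heterospecific mating it was at 10.23 and 10.02 at 15 min, 11.36 and 11.30 at 2 h, then 11.16 and 11.66 at 6 h. After conspecific mating it was at 10.05 and 8.99, 9.94 and 10.98, and 10.61 and 10.82. Here conspecific 15 min replicate 2, a dim array, was far below its partner, and the difference of 15 min from the other states was -1.50 without replicate 1 and -0.44 without replicate 2.

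GI23752 had the deepest dip of all members after conspecific mating. It was at 8.57 and 8.69 on the conspecific 15 min arrays, 8.97 and 10.61 at 2 h, then 10.15 and 10.52 at 6 h, against 10.90 and 10.03 in virgins. After heterospecific mating it was at 9.90 and 10.12 at 15 min, 10.67 and 11.18 at 2 h, then 11.02 and 10.99 at 6 h. Both conspecific 15 min arrays were below every other array, and heterospecific 15 min replicate 2 was above a virgin array. GI23752 was also the only member that the rule chose again without any 1 of the 14 arrays. GI16359 was at 8.38 and 7.32 on the conspecific 15 min arrays, the second not above background, against 10.15 and 9.66 in virgins. On the heterospecific 15 min arrays it was at 8.69 and 9.91, so its dip in that mating was -1.30 without replicate 2 and -0.08 without replicate 1.

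For the other members ranked 3 to 10, the difference of 15 min from the other states lay between -0.80 and -0.51 after heterospecific and between -0.84 and -0.48 after conspecific mating. GI16026 was among the brighter members, at 13.24 ± 0.33 in virgins, with 12.99 ± 0.03 (15 min), 14.09 ± 0.02 (2 h) and 14.05 ± 0.46 (6 h) after heterospecific mating and 12.66 ± 0.53, 13.71 ± 0.74 and 13.55 ± 0.07 after conspecific mating (SD, n = 2 per group). GI13560 was at 11.34 ± 0.38 in virgins, with 11.29 ± 0.05, 12.30 ± 0.15 and 12.31 ± 0.25 after heterospecific and 10.81 ± 0.28, 11.51 ± 0.05 and 11.67 ± 0.18 after conspecific mating. In both, the mean at 15 min after heterospecific mating was within 1 SD of the virgin mean. GI13123, GI10804, GI15218 and GI11348 had means of 9.98, 11.51, 10.00 and 11.48 at 15 min after heterospecific mating and of 9.79, 11.01, 9.96 and 11.12 after conspecific mating, against 10.31, 11.77, 10.27 and 11.60 in virgins.

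**Figure D2:**
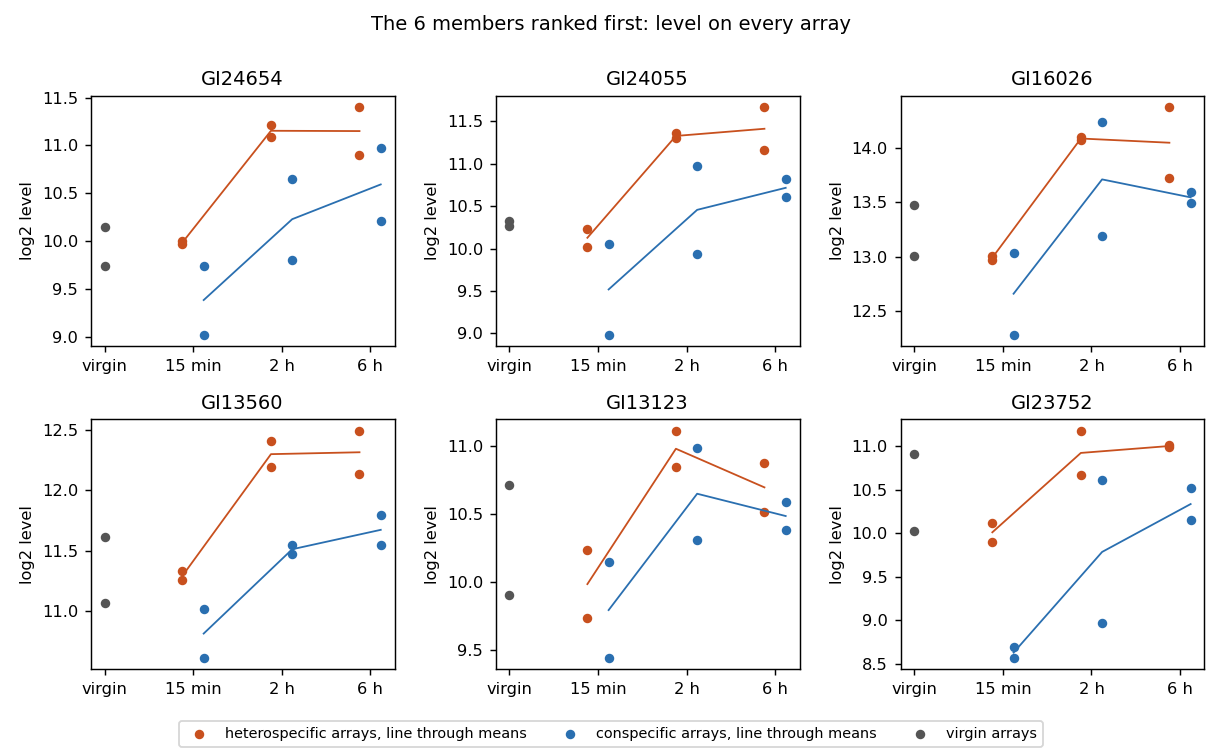
Log2 level on every array of the 6 members ranked first, by state, with heterospecific arrays in orange, conspecific arrays in blue and virgin arrays in grey (2 points per group, lines through group means). The heterospecific points at 15 min lie near the virgin points, and the conspecific points at 15 min and 2 h are spread widely in most panels.

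Where the low point stood against virgins is given for each mating as a description, since these values chose the members. At 15 min the members' median difference from virgin was -0.17 after heterospecific mating, with 74 of 80 below, and -0.47 after conspecific mating, with 80 below. These medians share the virgin arrays, so their gap reflects the difference between matings at 15 min. The median of that difference was 0.003 without the 4 dim arrays, among them conspecific 15 min replicate 2. Both arrays lay below both virgin arrays for 17 members after heterospecific mating, where 13.5% of all transcripts did so, and for 30 after conspecific mating, where 10% did. From 15 min the other way, both heterospecific 2 h arrays lay above both 15 min arrays for 76 members (24.3% of all transcripts), and both conspecific 2 h arrays for 20 (13%). At 6 h these counts were 74 (24.5%) and 45 (15.5%). The rule used these arrays, so nothing is read from these counts. Virgin replicate 2, conspecific 15 min replicate 2 and the first conspecific arrays at 2 h and 6 h were dim. All heterospecific arrays at 2 h and 6 h were read on day 1. Heterospecific 15 min replicate 2 and the virgin arrays were read on day 2.

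**Figure D3:**
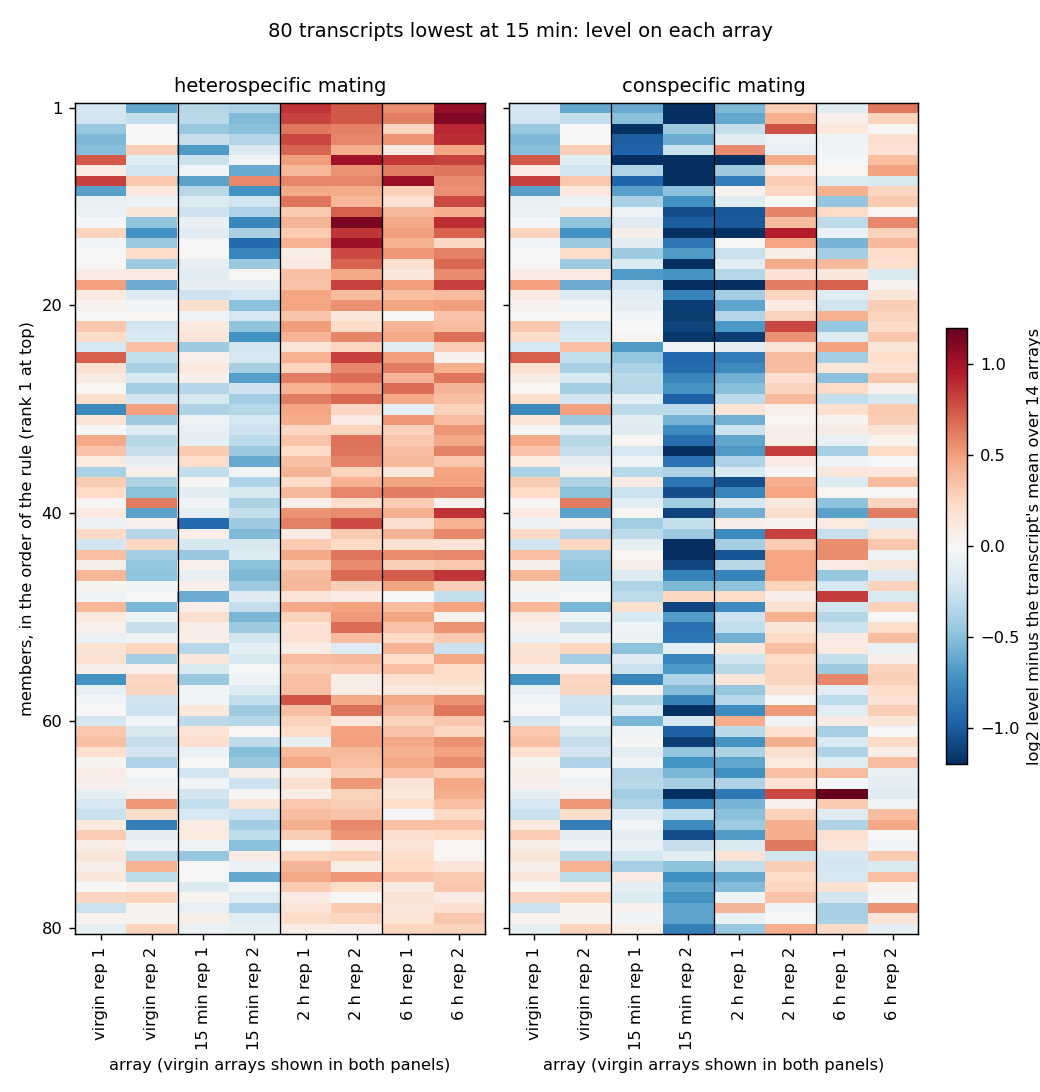
Log2 level of the 80 members (rows, rank 1 at top) on each array (columns) minus the transcript's mean over all 14 arrays, with the heterospecific course at left, the conspecific course at right and the virgin arrays in both. Conspecific 15 min replicate 2 is the lowest array for 54 of the 80 members, while the 4 heterospecific arrays at 2 h and 6 h are high almost throughout.

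Full separation of the arrays was rare among the members. Both heterospecific 15 min arrays lay below all 6 arrays of virgin, 2 h and 6 h for 14 of 80 members (1.78% of all transcripts), and both conspecific 15 min arrays for 8 (2.46%). Only GI22065, GI19648 and GI11896, named after their values were seen, had both (0.138% of all transcripts), and since the rule used these arrays nothing is read from the shares. GI22065 was at 12.21 and 12.35 at 15 min after heterospecific mating and 11.66 and 11.63 after conspecific mating, against 12.44 on both virgin arrays. GI19648 was the only one with all 4 arrays at 15 min below the other 10 (0.0758% of all transcripts). It was at 6.62 and 7.11 at 15 min after heterospecific and 7.13 and 7.26 after conspecific mating, against 7.48 and 7.59 in virgins, and it was not above background in these groups or at 6 h after conspecific mating, so the size of its differences is not well measured. GI11896 was at 8.79 and 8.71 at 15 min after heterospecific and 8.39 and 8.31 after conspecific mating, against 8.87 and 9.21 in virgins.

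The 2 arrays at 15 min did not carry the dip equally. Against the group means of the other states, the members' median was -0.34 on heterospecific replicate 1 and -0.56 on replicate 2, with all 80 below on each. It was -0.17 on conspecific replicate 1, with 61 below, and -0.73 on the dim conspecific replicate 2, with 79 below. Over all transcripts these medians were between -0.01 and 0.03. Conspecific 15 min replicate 2 was the lowest of the 14 arrays for 54 members (67.5%), where it was the lowest for 13.1% of all transcripts. On this array the last probe of a transcript exceeded the first by a median of 0.553, the largest of the 14 arrays, which ranged from 0.245 to 0.553. The next largest were conspecific 2 h replicate 1 (0.534), where members were low too, and virgin replicate 2 (0.502), and the 4 heterospecific arrays at 2 h and 6 h, where members were high, had 0.245 to 0.325. Conspecific 6 h replicate 1 did not follow this order, with 0.265 and a members' median level of 10.60, beside 10.62 on virgin replicate 2. Nor did the heterospecific 15 min arrays, with 0.365 and 0.423 and members' medians of 10.40 and 10.22, both below virgin replicate 2. Conspecific 15 min replicate 1 had 0.422 and 10.47, where virgin replicate 1 had 0.423 and 10.71. The part of this slope in the result was not tested.

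With the members' arrays taken within 1 day of image reading, the median was -0.43 for conspecific 15 min against virgin, 2 h and 6 h on day 2 and -0.47 for the single heterospecific 15 min array against 2 h and 6 h on day 1. For heterospecific 15 min against virgin on day 2, again with a single 15 min array, it was -0.25.

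Members were brighter than most transcripts. The rule ranked on the size of log2 deviations without background correction, and its part in this was not tested. Their mean level had a median of 10.63, against 8.19 for all GI-numbered transcripts, and 70 of 80 (87.5%) were above background on all 14 arrays, against 49.2%. GI13037, GI16026, GI17919 and GI14403 were brightest, with mean levels of 13.56, 13.47, 13.33 and 13.29. GI19195 was not above background on any array, and GI11807, at 7.37, was above it on 6. No member had a saturated probe, and 77 had 5 probes.

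The lower level at 15 min was shared by most probes of a transcript. On the scale of the rule, every probe of 53 members was lower at 15 min in both matings (5.27% of all GI-numbered transcripts, a share the rule fixed in part), and in the remaining members all but 1 or 2 were. All 5 probes of GI24654 were lower, with deviations from -0.93 to -0.67 after heterospecific and from -1.15 to -0.69 after conspecific mating. In GI23752 the probes disagreed: 3 that start close together, at positions 1047, 1058 and 1069, had deviations from -1.07 to -0.78 after heterospecific and from -1.76 to -1.43 after conspecific mating. Those at 668 and 1351 had -0.07 and -0.43 after heterospecific and -0.21 and -0.24 after conspecific mating. The last probe lay at a median position of 1088.5 in members and 932 in all GI-numbered transcripts, and the first at 111.5 and 111.

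In the contrast that the rule used, limma called 0 of 80 members at an adjusted p under 0.05 after either mating, where it called 0.0207% of all transcripts after heterospecific and 0.0689% after conspecific mating. An unadjusted p under 0.05 was reached by 19 members after heterospecific mating (4.84% of all transcripts) and by 25 after conspecific mating (8% of all), and since the contrast chose the members nothing is read from these shares.

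The study asks whether the response depends on the species of the male. The rule did not rank on the difference between matings at a given time, but it used the same arrays. Asking for a dip in both matings favours similar dips, which ties the difference at 15 min to those at 2 h and 6 h. The times are therefore not separate observations. With all 14 arrays, members were mostly higher after heterospecific than conspecific mating at every time, but no single difference passed the test. Most heterospecific arrays were read on day 1 and most conspecific arrays on day 2. At 15 min 75 of 80 were higher, with a median log2 difference of 0.29 (-0.01 over all transcripts). At 2 h 75 were higher, with a median of 0.48 (-0.001 over all), and at 6 h 73, with a median of 0.37 (0.01 over all). The median SE of such a difference was 0.316. Without the 4 dim arrays, most of them conspecific, 42 members were higher at 15 min, with a median of 0.003.

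Limma with Benjamini-Hochberg adjustment called 0 members at each time, where it called 0.0551%, 0.0207% and 0.00689% of all transcripts at 15 min, 2 h and 6 h. An unadjusted p under 0.05 was reached by 3 members (3.75%) at 15 min, 13 (16.2%) at 2 h and 5 (6.25%) at 6 h, all of them higher after heterospecific mating, where 3.29%, 7.82% and 9.84% of all transcripts reached it in either direction. The 3 at 15 min were GI16359, GI23752 and GI22065, with differences of 1.45, 1.38 and 0.64 (SE 0.47, 0.45 and 0.21, limma adjusted p = 0.982 for each). GI13560 had the lowest unadjusted p at 2 h and 6 h, with differences of 0.79 and 0.64 (SE 0.22, adjusted p = 0.637 and 0.502). Its probes at positions 41, 43, 45 and 47 start close together, so they are hardly separate measurements. Both heterospecific arrays lay above both conspecific arrays for 19 members at 15 min, 41 at 2 h and 48 at 6 h, where 12.7%, 24.9% and 24.8% of all transcripts did so.

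Single arrays moved these medians. At 15 min the median was 0.60 without conspecific replicate 1, 0.003 without conspecific replicate 2 and 0.45 without heterospecific replicate 2. At 2 h it was 0.16 without conspecific replicate 1 and 0.84 without conspecific replicate 2, and at 6 h 0.20 without conspecific replicate 1. With median scaling it was 0.73 at 2 h and 0.80 at 6 h.

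Without the 4 dim arrays, 3 of which are conspecific arrays, the median difference between matings was 0.003 at 15 min, with 42 of 80 higher, 0.16 at 2 h, with 54 higher, and 0.20 at 6 h, with 66 higher. With the day of image reading as a block the medians were 0.19, 0.23 and 0.20. Only heterospecific 15 min and conspecific 6 h had arrays on both days, so the day effect rests on these groups and the 2 h value borrows it. All 4 dim arrays were read on day 2, among them the conspecific 6 h array of that day. Within a day, the median was 0.22 at 15 min on day 2 (59 higher, 1 heterospecific array) and 0.20 at 6 h on day 1 (66 higher, 1 conspecific array). The values without the dim arrays repeat those given above without a single conspecific array at each time. The 6 h value within day 1 rests on the same arrays as well, so these are not separate checks. At 2 h the matings lay on different days, so within a day they cannot be told apart.

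**Figure D4:**
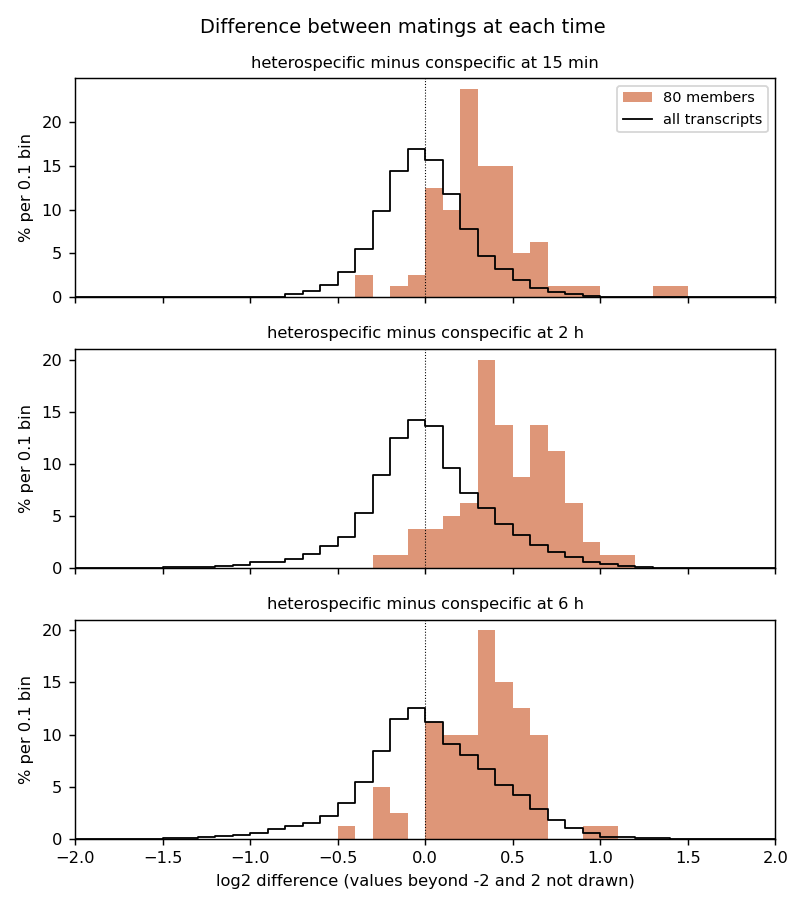
Distribution of the log2 difference, heterospecific minus conspecific, at 15 min, 2 h and 6 h for the 80 members (orange bars, % per bin) and for all transcripts (black line). Most members lie right of 0 at each time, with medians of 0.29, 0.48 and 0.37, and at 15 min this shift is 0.003 without the dim arrays.

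The difference in depth between the dips of the matings is a difference of the values that chose the members, and asking for a dip in both favours similar depths, so it is given without reading a result from it. The median of the heterospecific minus the conspecific dip was 0.01 (-0.02 over all transcripts), with 42 members above 0 and 38 below, and single members ranged from -0.64 for GI19648 to 0.84 for GI16359. Limma called 0 members (0.00689% of all transcripts), and 1 had an unadjusted p under 0.05, where 2.27% of all transcripts did. The median was 0.35 without conspecific 15 min replicate 1 and -0.24 without replicate 2.

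No member passed the test between the later times. The rule kept transcripts whose farthest state was the earliest time after mating, which limits how far 2 h and 6 h can differ. The low counts given next are thus partly set by the choice of members, and nothing is read from them. Between 2 h and 6 h, over both matings, the median difference was 0.06 (-0.004 over all), with values from -0.35 to 0.41, 0 members called (0.00689% of all transcripts) and 0 at an unadjusted p under 0.05, where 5.24% of all transcripts were. Its sign turned without conspecific 2 h replicate 1 (-0.10, against 0.21 without replicate 2), without all 4 dim arrays (-0.06), with the day as a block (-0.02) and with median scaling (-0.02).

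At 2 h and 6 h, averaged over both matings, 72 of 80 members were above the virgin level, with a median of 0.22 (-0.004 over all) and 0 called (0.138% of all transcripts). An unadjusted p under 0.05 was reached by 7 members (8.75%), all higher, against 12.3% of all transcripts. The rule also limits this difference, because neither virgin nor 2 h nor 6 h could be the farthest state. Nothing is therefore read from these shares. The largest difference was that of GI24654, at 0.84 (SE 0.28, limma adjusted p = 0.296). By mating, at 2 h the median difference from virgin was 0.44 after heterospecific and -0.06 after conspecific mating, and at 6 h 0.42 and 0.09. Both heterospecific arrays lay above both virgin arrays for 52 members at 2 h (27.9% of all transcripts) and for 56 at 6 h (28.1%), against 2 (12.5%) and 14 (13.3%) after conspecific mating. These comparisons share the virgin arrays, and all heterospecific arrays at 2 h and 6 h were read on day 1 and the virgin arrays on day 2, so mating and day cannot be told apart there. Within day 2, conspecific 2 h and 6 h against virgin had a median of -0.03, with 35 members higher and 45 lower and a single array at 6 h. With the day as a block the median over both matings was 0.07, with 50 members above, and with median scaling it was 0.59, with 78 above. It was 0.12 without virgin replicate 2 and 0.11 without conspecific 2 h replicate 2.

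Which transcripts made up the list depended on single arrays. Without 1 array at a time, between 11 (without virgin replicate 2) and 61 (without conspecific 6 h replicate 2) of the 80 were chosen again. It was 33 without virgin replicate 1 or conspecific 2 h replicate 2, 34 without conspecific 15 min replicate 2, 26 and 30 without heterospecific 15 min replicates 1 and 2, and 45 without heterospecific 2 h replicate 1. Without the 4 dim arrays 14 were chosen again.

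With the rule applied to replicate 1 arrays alone, 5 of the 80 were chosen again, and the 80 transcripts so chosen had a median deviation of 0.03 after heterospecific and -0.04 after conspecific mating on the replicate 2 arrays, which that choice did not use. Of these, 20 (25%) were lower at 15 min in both matings on those arrays, where 28.6% of all GI-numbered transcripts were. With the rule applied to replicate 2 arrays alone, 24 of the 80 were chosen again. On replicate 1 arrays the 80 so chosen had a median of -0.22 after heterospecific and -0.01 after conspecific mating, and 38 (47.5%) were lower in both, against 28.3% of all GI-numbered transcripts.

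**Figure D5:**
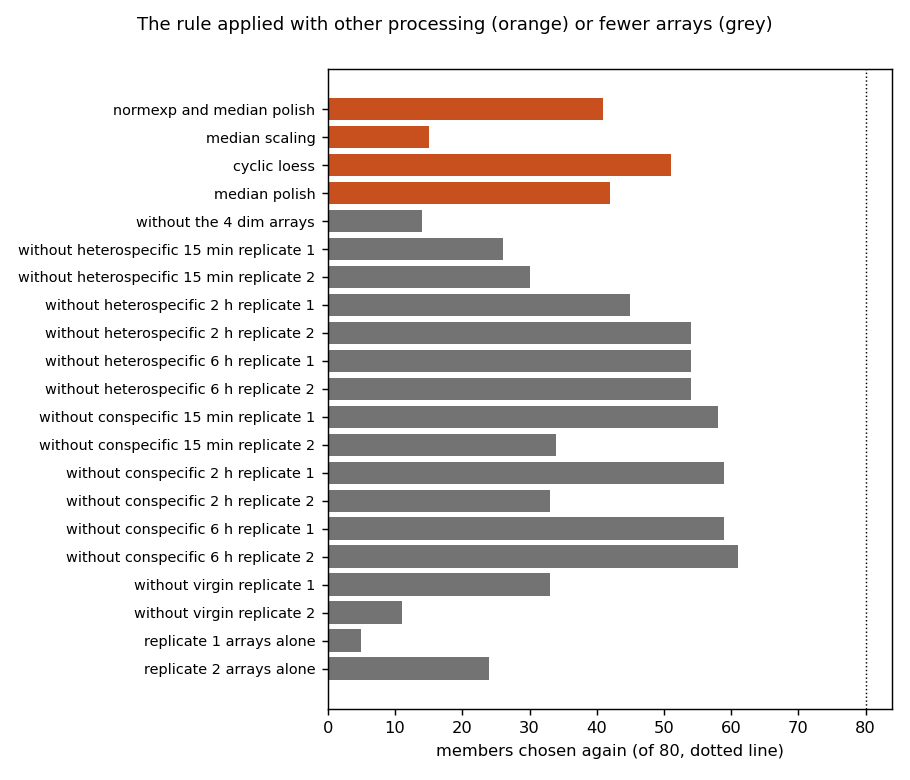
Number of the 80 members (dotted line) that the same rule chose again under other processing (orange) or with fewer arrays (grey). The bars run from 5 with replicate 1 arrays alone to 61 without conspecific 6 h replicate 2.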

How the data were processed

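Per the file headers, NimbleScan 2.4.67 read each array image, and the deposited intensity is that of the perfect-match probe. RNA was amplified and labelled with Cy3, per the labels' protocols. RMA is named in the submitters' processing notes, but the deposited value table equalled the raw intensity (0 probes differed), so the intensities were normalized here. The mismatch column held only 0.

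The members were chosen on uncorrected log2 intensity. For tests, intensities were corrected with normexp (offset 50), quantile normalized and summarised by median polish (R 4.3.3, limma 3.58.1). All 14519 transcripts entered 1 limma fit of 7 group means with 7 residual degrees of freedom and 3.56 from the prior. P-values are 2-sided, with Benjamini-Hochberg adjustment. A transcript is above background where it exceeds the array's modal level by 2 SDs, computed from values below that mode. The number of arrays limits the precision. The fit and the rule were run on simulated data to check the code. The planted changes were larger than the dip of any member, and for the rule the noise was set below that observed. The simulation therefore does not show how well dips of the size seen here are found.

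The members and lists were chosen with earlier results of these data known. Members named are the 10 ranked first, those at the limit, and the 4 brightest and 2 dimmest. Others were named after their values were seen. Function classes, most marker lists and promoter motifs were not used, because no GI number could be matched. Alternatives were the background correction, probe summary, normalization, a filter on dim transcripts, replicate or day as a block, the samples fitted, and leaving out arrays.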

Additional observations from a re-analysis of the deposited data

How the results depend on the processing

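In each of 23 alternatives to the reported fit, limma called 0 members in the differences between matings at 15 min, 2 h and 6 h, in 6 h against 2 h, in 2 h and 6 h against virgin and in the difference between the dips. For 15 min against the other states, the count was 1 after heterospecific mating with the day as a block (GI19648), and 1 after conspecific mating without the 4 dim arrays and without conspecific 2 h replicate 1 (GI23752), so leaving out single arrays gave 0 to 1. Nothing is read from these calls, because that contrast chose the members. The list itself moved most. Of the 80, 41 were chosen again with normexp and median polish, 42 with median polish alone, 51 with cyclic loess, 15 with median scaling, where only 28 candidates were left, and 14 without the 4 dim arrays. Leaving out arrays gave 5 to 61. The cause was not tested. With median scaling the median of all transcripts at 2 h between matings shifted to -0.13 and that of the members was 0.73.

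The replicate number as a block left 0 members called in each contrast. Replicate differences correlated from -0.63 to 0.51 over 21 pairs of groups, with 8 above 0.1. The dim array was replicate 1 in some groups and replicate 2 in others, and its part in these correlations was not tested. Whether the numbers pair the samples therefore cannot be told from them. With 2 arrays a group, the median SE of a member's difference between matings at 1 time was 0.316.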
